A study of Mus musculus with 9 samples.

Results

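Interferon-stimulated genes are the genes that cells switch on when an interferon reaches its receptor. A list of 37 of them was followed by symbol in a table of 55421 mouse genes, and all 37 were found. The filter on low counts kept 36 of the 37 among 20032 genes tested, and the exception was Oasl1, whose highest count in any library was 21. The list holds 4 transcription factors, 4 sensors of foreign nucleic acid and antiviral effectors. A further role joins the system of the ubiquitin-like protein ISG15 and other regulators. The rest are 6 immunity GTPases, a pair of IFI27 family genes and a pair of secreted proteins.

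Bulk RNA-seq was made from hippocampal cells taken live by cell sorting for tdTomato, a red fluorescent marker that the transgenic mice make in neurons. The 9 libraries form 3 groups of 3: Tmsb4x conditional knockout mice after mild traumatic brain injury (CKO mTBI), wild-type mice after the same injury (WT mTBI), and wild-type mice after an operation without the impact (WT sham). The injury was 1 controlled cortical impact at mild strength. Age, sex, strain, the interval after injury, the Cre driver of the knockout and the driver of tdTomato are not given in the sources used here, and no knockout mice without injury were analysed, so genotype and injury cannot be separated in full.

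The libraries held 36452443 to 39590872 counts each. Tmsb4x, the gene of the actin-binding peptide thymosin beta 4, had 70, 109 and 108 counts in CKO mTBI libraries, against 35061, 21678 and 11921 counts in WT mTBI libraries and 105, 61 and 85 counts in the libraries labelled WT sham. The libraries labelled WT sham were thus at the level of the knockout, which goes against a wild-type label, and every direction drawn from them below is a direction relative to libraries with that label. The spread beyond counting noise (biological coefficient of variation) was 18.69% among CKO mTBI libraries, 19.61% among WT mTBI libraries and 3.26% among libraries labelled WT sham, which were thus very alike. WT mTBI 3 was the only library with high Xist, at 835 CPM, and with Ddx3y near 0, at 0.0498 CPM, and the other 8 libraries had at most 0.892 CPM of Xist and at least 49.7 CPM of Ddx3y. CPM is the usual per-library scaling of counts, here with TMM factors for composition. The p-values measure the spread between these libraries, since nothing beyond the labels shows that each came from its own mouse.

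Type I interferons bind the receptor Ifnar1/Ifnar2, whose kinases Jak1 and Tyk2 phosphorylate Stat2. Stat2 and Irf9 are subunits of ISGF3, a factor that binds the interferon-stimulated response element (ISRE) in promoters, while interferon gamma acts mainly on a different element, GAS. In brain, microglia, astrocytes, endothelial cells and neurons can all respond, with microglia known as strong responders.

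The element is printed here because most of the members whose promoter could be read held its letters. RefSeq promoter windows on GRCm38.p6, 250 bases before to 50 bases after a gene's start, were found for 27 of the 37 members. The ISRE letters, GAAA, then 2 bases of any kind, then GAAA, stood on either strand in 19 of these 27 members (70.4%), against 3.99% of 27025 genes with such a window. The GAS letters TTCNNNGAA stood in 7 of the 27 (25.9%), against 9.55% of the 27025 genes. Overlapping matches were each counted, and an ISRE match and a GAS match overlapped in Bst2 and in Ifitm3. The windows of the other 8, Irf1, Irf7, Irf9, Ifit2, Oasl1, Oasl2, Xaf1 and Lgals3bp, held no ISRE letters. A match is a description of letters only. The stretches below run 5′ to 3′ along the gene's strand, end before the start site and have the ISRE matches in capitals. They show Isg15, Ifit1, Ifit3 and Ifit3b, standard readouts of the pathway whose windows held the letters, and members whose expression is described further on. Their positions on GRCm38.p6 are chr4:156200855-156200916 (minus strand) for Isg15, chr19:34640765-34640833 (plus) for Ifit1, chr19:34583353-34583436 (plus) for Ifit3, chr19:34607749-34607832 (plus) for Ifit3b, chr5:120907526-120907565 (minus) for Oas1a, chr12:26456543-26456592 (minus) for Rsad2, chr10:128270256-128270305 (plus) for Stat2, chr8:71537567-71537622 (minus) for Bst2 and chr11:48871421-48871470 (minus) for Irgm1.
Isg15: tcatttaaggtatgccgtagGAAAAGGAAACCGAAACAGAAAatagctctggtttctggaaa
Ifit1: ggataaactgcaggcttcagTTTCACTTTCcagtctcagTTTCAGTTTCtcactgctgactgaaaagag
Ifit3: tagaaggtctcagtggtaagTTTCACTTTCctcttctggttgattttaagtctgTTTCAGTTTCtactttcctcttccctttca
Ifit3b: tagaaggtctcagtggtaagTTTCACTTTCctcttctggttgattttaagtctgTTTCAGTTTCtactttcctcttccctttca
Oas1a: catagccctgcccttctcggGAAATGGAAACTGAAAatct
Rsad2: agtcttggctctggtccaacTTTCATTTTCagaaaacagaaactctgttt
Stat2: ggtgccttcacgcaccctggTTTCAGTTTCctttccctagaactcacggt
Bst2: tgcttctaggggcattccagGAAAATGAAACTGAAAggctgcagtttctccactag
Irgm1: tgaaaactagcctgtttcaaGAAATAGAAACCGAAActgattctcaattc

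Ifit3 and Ifit3b have the same letters over the whole stretch, and the likeness goes on into their transcripts: 51.2% of the 50-base words of Ifit3 also occur in Ifit3b. Likewise 57.6% of the words of Oas1a occur in Oas1g, 36.1% of those of Ifitm2 in Gm45717, 13.6% of those of Rtp4 in Gm45338 and 12.3% of those of Igtp in Irgm2. Reads that fall wholly in such stretches can have several alignments, and reads with several alignments were left out by the authors' counting. For Ifitm2, Rtp4 and Igtp, exons of the other gene overlap theirs on the same strand, by 268, 296 and 162 bases. Words shared in that way need not mean several alignments. Gbp7 has the same kind of overlap with Gm43802, of 637 bases, and shares 10.6% of its words with it. The levels of these 6 genes, Ifit3b included, and of Gbp7 are thus uncertain.

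Most members were low in these cells. Mean CPM over the 9 libraries was under 1 for 5 of the 36 tested members, 1 to 5 for 21, 5 to 10 for 5 and over 10 for 5. Per kilobase of exon, on the scale of CPM per kilobase, the median member stood at the 32.3rd percentile of all genes tested, and 7 members stood above the 50th. Ifi27 was the highest on that scale, at 22.0, followed by Ifitm3 at 20.4 and Lgals3bp at 8.02, and Mx1 was the lowest tested member at 0.0827.

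By edgeR's quasi-likelihood test, no member passed an adjusted p of 0.05 in any of the 3 comparisons, while DESeq2 called 1 member and limma voom called 1 and 3 in comparisons with WT sham, as given below. The group mean was highest in CKO mTBI for 30 of the 36 tested members, in WT mTBI for 3 and in WT sham for 3. It was lowest in CKO mTBI for 1 member, in WT mTBI for 21 and in WT sham for 14. The libraries of the groups overlapped in every comparison for 23 members. These counts of group means and of overlap in every comparison were not made for all genes. They describe the list alone and do not show that it differs from other genes.

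**Figure D1:**
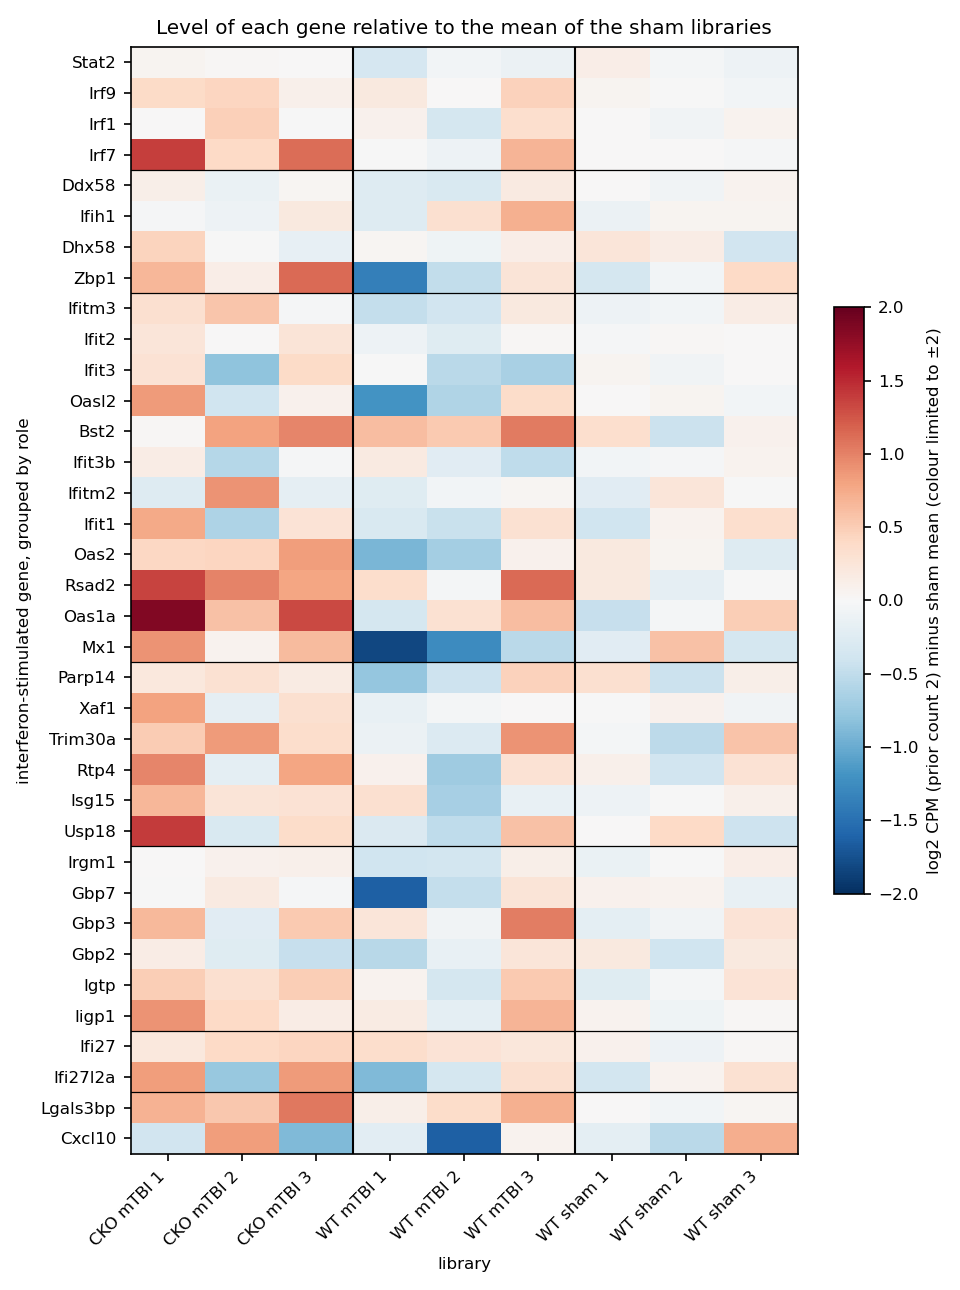
Level of each of the 36 tested genes in each library as log2 CPM minus the mean of the 3 libraries labelled WT sham, with genes in rows by role and libraries in columns. Red cells collect in the CKO mTBI columns and in WT mTBI 3, blue cells in WT mTBI 1 and 2, and the libraries labelled WT sham stay pale.

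In WT mTBI against WT sham, the question by the labels was whether injury moved the genes in wild-type cells. Tmsb4x differed here too, by a log2 change of 8.04 (SE 0.43, edgeR adjusted p = 1.89e-05), so injury and the Tmsb4x level cannot be told apart. By edgeR's quasi-likelihood test, 0 of 36 members were called at an adjusted p under 0.05, against 0.509% of all genes tested, and the smallest adjusted p was 0.218, for Ifi27. DESeq2 called 0 members and 541 of all 20032 genes tested. With quality weights, limma voom called 1 member, Lgals3bp, and 722 of all genes. At an unadjusted p under 0.05, edgeR had 3 members higher in WT mTBI (Ifi27, Lgals3bp and Bst2) and 1 lower (Mx1), together 11.1% of members against 13.2% of all genes (7.45% higher and 5.79% lower). These 4 were also the members whose libraries did not overlap, 11.1% against 23.9% of all genes (12.4% higher and 11.5% lower). The log2 change was positive for 14 of 36 members, 38.9% against 53.0% of all genes, with a median of -0.10 against 0.018 for all genes. All 3 shares of members were below those of all genes, the first of them only slightly, and the differences in share were not tested.

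In CKO mTBI against WT mTBI, the question was whether loss of Tmsb4x moved the genes after injury. edgeR called 0 of 36 members, against 0.0150% of all genes (3 genes), with a smallest adjusted p of 0.732, and DESeq2 and limma voom also called 0. At an unadjusted p under 0.05, 8 members were higher in CKO mTBI and 0 lower, 22.2% of members against 6.60% of all genes (3.25% higher and 3.35% lower). The 8 were Mx1, Oas2, Irf7, Oas1a, Ifitm3, Zbp1, Lgals3bp and Ifit2. This fit shares 1 spread over all 9 libraries, and those labelled WT sham were far more alike than either group here. With only the 6 libraries compared, 5 members were higher and 0 lower, against 3.14% of all genes in either direction. The log2 change was positive for 32 of 36 members, 88.9% against 50.2% of all genes, with a median of 0.36 against 0.0012. The libraries did not overlap for 3 members, Mx1, Oas2 and Stat2, or 8.33% against 9.72% of all genes (4.86% higher and 4.86% lower).

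In CKO mTBI against WT sham, the labels differ in genotype and injury together, while Tmsb4x itself differed by a log2 change of 0.15 (SE 0.43, edgeR adjusted p = 0.999). edgeR called 0 of 36 members, against 0.0699% of all genes, with a smallest adjusted p of 0.148, for Lgals3bp. DESeq2 called 1 member, Lgals3bp, and 226 of all 20032 genes tested. With limma voom, 3 members were called, Lgals3bp, Irf7 and Ifi27, and 279 of all genes. At an unadjusted p under 0.05, 7 members were higher in CKO mTBI and 0 lower, 19.4% of members against 7.20% of all genes (4.58% higher and 2.62% lower). The 7 were Lgals3bp, Ifi27, Irf7, Rsad2, Oas1a, Bst2 and Irf9. The libraries did not overlap for 10 members, all higher in CKO mTBI, 27.8% against 17.2% of all genes (8.75% higher and 8.40% lower), and they include Isg15, Oas2, Igtp and Iigp1 beside 6 of those 7. The log2 change was positive for 33 of 36 members, 91.7% against 52.6% of all genes, with a median of 0.33. The 3 comparisons share libraries, so their counts are not independent of one another.

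The 95% intervals show what size of change the data leave room for. Each uses the spread shared by all 3 groups. Intervals between the injured groups thus rest in part on the very alike libraries labelled WT sham. In WT mTBI minus WT sham the interval lay within a log2 change of -1 to 1 for 24 of 36 members, in CKO mTBI minus WT mTBI for 19 and in CKO mTBI minus WT sham for 19. It reached above 1 for 5, 17 and 17 members in that order, and below -1 for 8, 0 and 1.

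**Figure D2:**
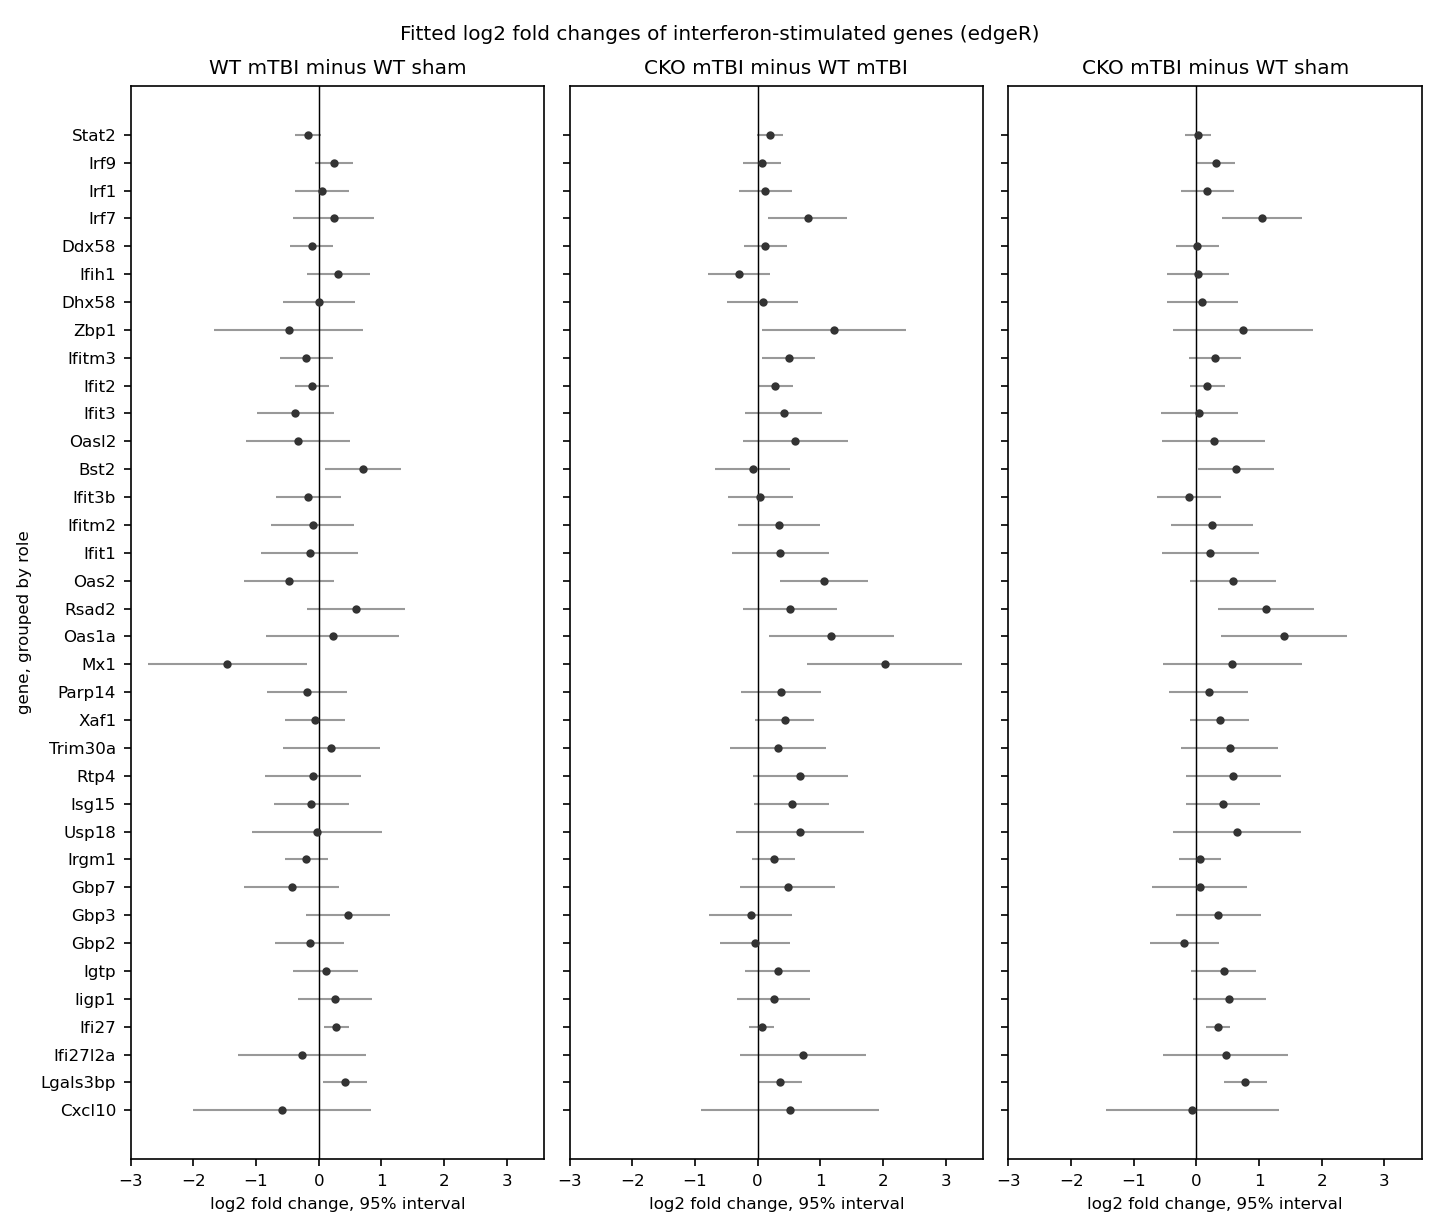
Log2 fold change from edgeR with its 95% interval for each of the 36 tested genes, in WT mTBI minus WT sham, CKO mTBI minus WT mTBI and CKO mTBI minus WT sham. Most points of the middle and right panels lie right of 0 (32 and 33 of 36), and the widest intervals belong to genes of few counts such as Mx1 and Cxcl10.

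Among the transcription factors, Irf7, which induces type I interferon genes, had 4.37, 2.17 and 3.65 CPM in CKO mTBI libraries, against 1.64, 1.53 and 2.67 CPM in WT mTBI libraries and 1.66, 1.65 and 1.62 CPM in libraries labelled WT sham. Every CKO mTBI library was above every library labelled WT sham, while WT mTBI 3 was above CKO mTBI 2. The fitted log2 change was 0.80 (SE 0.29, edgeR adjusted p = 0.732) in CKO mTBI minus WT mTBI and 1.04 (SE 0.29, adjusted p = 0.303) in CKO mTBI minus WT sham. In WT mTBI minus WT sham it was 0.24 (SE 0.29, adjusted p = 0.740).

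Stat2, the ISGF3 subunit that carries the activation domain, was the member with the highest mean CPM. It had 36.7, 35.7 and 35.4 CPM in CKO mTBI libraries, against 27.9, 33.8 and 32.3 CPM in WT mTBI libraries and 38.5, 34.4 and 33.0 CPM in libraries labelled WT sham. CKO mTBI libraries were all above WT mTBI libraries and overlapped those labelled WT sham. edgeR gave a log2 change of 0.20 (SE 0.09, edgeR adjusted p = 0.732) in CKO mTBI minus WT mTBI.

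Irf9, the DNA-binding subunit of ISGF3, had 13.9, 14.4 and 11.4 CPM in CKO mTBI libraries, against 12.3, 10.8 and 14.8 CPM in WT mTBI libraries and 11.1, 10.7 and 10.3 CPM in libraries labelled WT sham. The ranges of the injured genotypes overlapped, and all CKO mTBI libraries were above those labelled WT sham. The log2 change in CKO mTBI minus WT sham was 0.31 (SE 0.14, edgeR adjusted p = 0.675). Irf1, a factor induced mainly by interferon gamma, had log2 changes of 0.05 to 0.17 over the 3 comparisons.

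Of the sensors, Zbp1, which binds Z-form nucleic acid and can start cell death, had 22, 15 and 32 counts in CKO mTBI libraries, against 4, 9 and 17 counts in WT mTBI libraries and 10, 12 and 18 counts in libraries labelled WT sham. The groups overlapped. The log2 change in CKO mTBI minus WT mTBI was 1.22 (SE 0.52, edgeR adjusted p = 0.732). The RNA sensors Ddx58 (RIG-I), Ifih1 (MDA5) and Dhx58 (LGP2) had log2 changes of -0.29 to 0.12 in that comparison.

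Among the 12 tested antiviral effectors, 11 had a positive log2 change in CKO mTBI minus WT mTBI, and 3 in WT mTBI minus WT sham. Mx1, an antiviral GTPase, had 0.627, 0.333 and 0.514 CPM in CKO mTBI libraries, against 0.0513, 0.102 and 0.199 CPM in WT mTBI libraries and 0.260, 0.496 and 0.236 CPM in libraries labelled WT sham. WT mTBI libraries were all below those of both other groups. The values rest on 24, 13 and 20 counts in CKO mTBI, 2, 4 and 8 counts in WT mTBI and 10, 18 and 9 counts in WT sham. For Mx1 the log2 change was 2.03 (SE 0.56, edgeR adjusted p = 0.732) in CKO mTBI minus WT mTBI, with a 95% interval of 0.79 to 3.26, and -1.46 (SE 0.58, adjusted p = 0.314) in WT mTBI minus WT sham. Both mates of a read pair were counted, so the number of independent fragments is smaller than the number of counts, and intervals cover no more than the spread of these libraries.

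The oligoadenylate synthetases make a messenger that activates the nuclease RNase L on sensing double-stranded RNA. Oas2 had 1.36, 1.38 and 1.85 CPM in CKO mTBI libraries, against 0.513, 0.612 and 1.07 CPM in WT mTBI libraries and 1.17, 1.05 and 0.838 CPM in libraries labelled WT sham. CKO mTBI libraries were above all others. The fitted log2 change was 1.06 (SE 0.32, edgeR adjusted p = 0.732) in CKO mTBI minus WT mTBI and 0.59 (SE 0.31, adjusted p = 0.800) in CKO mTBI minus WT sham.

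Oas1a, whose level is uncertain because of its likeness to Oas1g, had 1.36, 0.537 and 0.925 CPM in CKO mTBI libraries, against 0.257, 0.433 and 0.548 CPM in WT mTBI libraries and 0.234, 0.331 and 0.497 CPM in libraries labelled WT sham. CKO mTBI 2 was just below WT mTBI 3, and the other CKO mTBI libraries were above all WT libraries. edgeR gave a log2 change of 1.18 (SE 0.45, edgeR adjusted p = 0.732) in CKO mTBI minus WT mTBI and 1.40 (SE 0.46, adjusted p = 0.424) in CKO mTBI minus WT sham. Oasl2 had log2 changes of 0.60, 0.27 and -0.33 in CKO mTBI minus WT mTBI, CKO mTBI minus WT sham and WT mTBI minus WT sham.

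Rsad2 (viperin), an enzyme that makes a chain-terminating nucleotide, had 1.70, 1.30 and 1.13 CPM in CKO mTBI libraries, against 0.821, 0.612 and 1.44 CPM in WT mTBI libraries and 0.727, 0.551 and 0.628 CPM in libraries labelled WT sham. CKO mTBI libraries and WT mTBI 3 were above the rest. Its log2 change was 1.11 (SE 0.35, edgeR adjusted p = 0.399) in CKO mTBI minus WT sham and 0.59 (SE 0.36, adjusted p = 0.490) in WT mTBI minus WT sham.

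Bst2 (tetherin), which holds budding virions at the cell surface, had 2.95, 5.12 and 5.78 CPM in CKO mTBI libraries, against 4.46, 4.18 and 6.00 CPM in WT mTBI libraries and 3.69, 2.15 and 3.09 CPM in libraries labelled WT sham. Injured libraries were above those labelled WT sham except for CKO mTBI 1. The fitted log2 change was 0.71 (SE 0.28, edgeR adjusted p = 0.299) in WT mTBI minus WT sham and -0.08 (SE 0.27, adjusted p = 0.942) in CKO mTBI minus WT mTBI. Bst2 was the only tested effector with a negative log2 change in CKO mTBI minus WT mTBI.

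Ifitm3, a membrane protein that blocks viral entry, had 16.6, 19.6 and 13.1 CPM in CKO mTBI libraries, against 9.54, 10.2 and 15.2 CPM in WT mTBI libraries and 12.4, 12.8 and 14.9 CPM in libraries labelled WT sham. WT mTBI 1 and 2 were the lowest of all libraries, and the groups overlapped. The log2 change in CKO mTBI minus WT mTBI was 0.50 (SE 0.19, edgeR adjusted p = 0.732). The IFIT genes, whose proteins bind viral RNA, had log2 changes of 0.37 (Ifit1), 0.28 (Ifit2), 0.42 (Ifit3) and 0.05 (Ifit3b) in the same comparison, and all 4 were negative in WT mTBI minus WT sham.

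**Figure D3:**
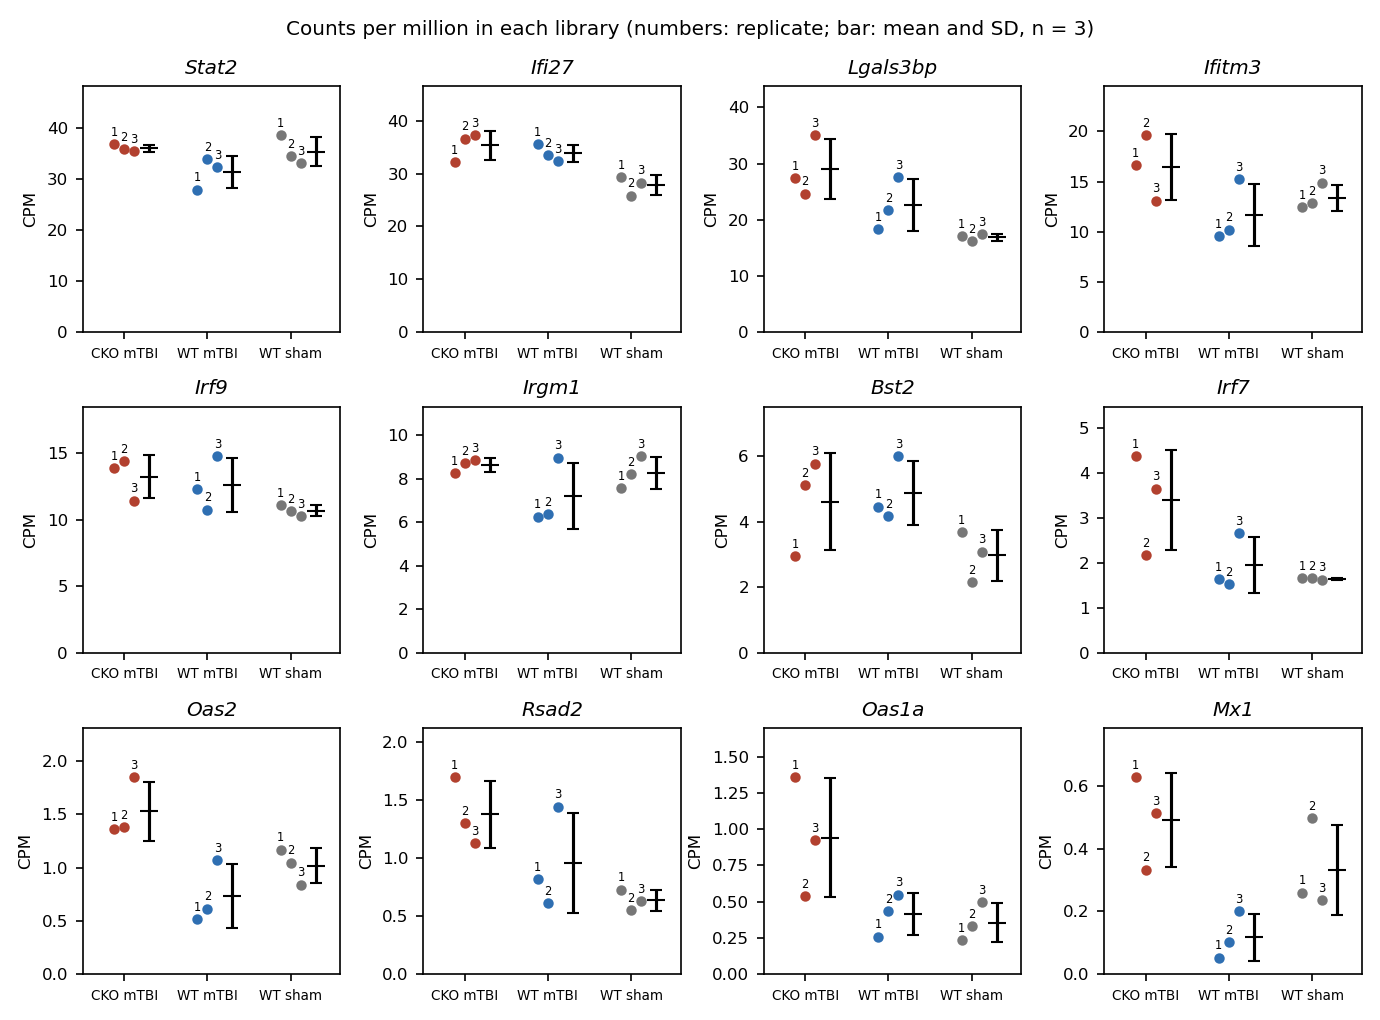
CPM of 12 genes in each library (points, numbered by replicate) with mean and SD (n = 3), for CKO mTBI, WT mTBI and WT sham from left to right, on linear axes from 0. CKO mTBI libraries stand above all others for Oas2, WT mTBI libraries stand below all others for Mx1, and WT mTBI 3 is the highest of its group for 10 of the 12 genes shown.

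Isg15, the ubiquitin-like modifier itself, had 2.46, 1.84 and 1.88 CPM in CKO mTBI libraries, against 1.92, 0.943 and 1.37 CPM in WT mTBI libraries and 1.43, 1.52 and 1.65 CPM in libraries labelled WT sham. CKO mTBI libraries were above those labelled WT sham and overlapped WT mTBI libraries. edgeR gave a log2 change of 0.54 (SE 0.27, edgeR adjusted p = 0.732) in CKO mTBI minus WT mTBI. All 6 members of its role, the ISG15 system and other regulators, had positive changes there, of 0.33 to 0.68. Among them were Usp18, the protease that removes ISG15 (0.67), and Rtp4 (0.68). None of the 6 had an unadjusted p under 0.05.

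The immunity GTPases act on membranes that enclose intracellular microbes and are induced mainly by interferon gamma. Irgm1 had 8.26, 8.72 and 8.86 CPM in CKO mTBI libraries, against 6.26, 6.37 and 8.97 CPM in WT mTBI libraries and 7.56, 8.21 and 9.03 CPM in libraries labelled WT sham. WT mTBI 1 and 2 were the lowest of all 9 libraries, and WT mTBI 3 was among the highest. The log2 change in CKO mTBI minus WT mTBI was 0.26 (SE 0.15, edgeR adjusted p = 0.740). The other 5 GTPases had log2 changes of -0.11 (Gbp3) to 0.48 (Gbp7) in that comparison and of -0.19 (Gbp2) to 0.53 (Iigp1) in CKO mTBI minus WT sham.

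Ifi27, a small hydrophobic protein of mitochondria, lies at chr12:103434211-103440239 on the plus strand of GRCm38. It had 32.2, 36.6 and 37.3 CPM in CKO mTBI libraries, against 35.6, 33.5 and 32.4 CPM in WT mTBI libraries and 29.4, 25.8 and 28.3 CPM in libraries labelled WT sham. All 6 injured libraries were above the libraries labelled WT sham, with no order between the genotypes. Its log2 change was 0.35 (SE 0.09, edgeR adjusted p = 0.242) in CKO mTBI minus WT sham, 0.28 (SE 0.09, adjusted p = 0.218) in WT mTBI minus WT sham and 0.06 (SE 0.09, adjusted p = 0.837) in CKO mTBI minus WT mTBI.

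Of the secreted products, Lgals3bp, a glycoprotein that binds galectin-3, lies at chr11:118392751-118402092 on the minus strand. It had 27.4, 24.7 and 35.1 CPM in CKO mTBI libraries, against 18.4, 21.7 and 27.6 CPM in WT mTBI libraries and 17.0, 16.2 and 17.4 CPM in libraries labelled WT sham. Every injured library was above every library labelled WT sham, and WT mTBI 3 lay inside the CKO mTBI range. The fitted log2 change was 0.78 (SE 0.16, edgeR adjusted p = 0.148) in CKO mTBI minus WT sham, 0.42 (SE 0.16, adjusted p = 0.290) in WT mTBI minus WT sham and 0.36 (SE 0.16, adjusted p = 0.732) in CKO mTBI minus WT mTBI. Cxcl10, a chemokine for T cells, had 12, 31 and 8 counts in CKO mTBI libraries, against 14, 4 and 18 counts in WT mTBI libraries and 14, 10 and 28 counts in libraries labelled WT sham, with full overlap.

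Across the list, the injured libraries of 1 group were not alike. The median log2 difference of the 36 members from the WT sham mean was 0.43, 0.15 and 0.28 in CKO mTBI 1 to 3 and -0.18, -0.29 and 0.27 in WT mTBI 1 to 3. WT mTBI 3 had 31 members above that mean, against 13 in WT mTBI 1 and 6 in WT mTBI 2, and it was the highest of its group for 31 of 36. The median coefficient of variation of a member was 23.1% in CKO mTBI, 31.3% in WT mTBI and 11.8% in WT sham. It was 15.7%, 18.02% and 9.52% for genes of the same range of mean CPM. That range, 0.313 to 34.2 CPM, holds 12694 tested genes, and the median member had a mean of 3.47 CPM. The genes were not matched to the members in level within it, so the part of level in the difference was not tested.

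**Figure D4:**
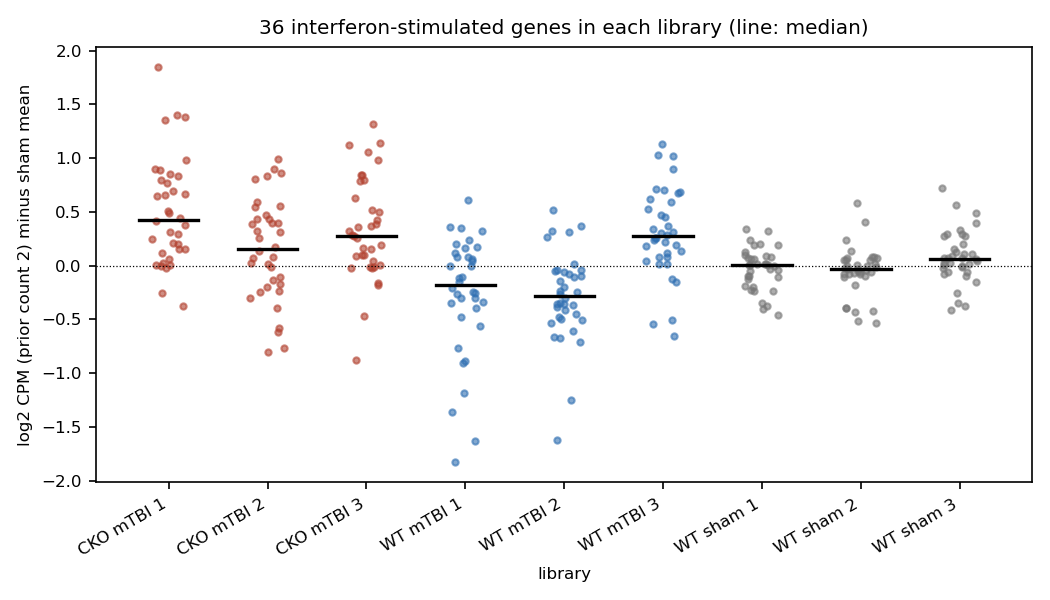
Log2 CPM minus the mean of the libraries labelled WT sham for 36 genes (points) in each library, with the median as a line. The medians are 0.43, 0.15 and 0.28 in CKO mTBI, -0.18, -0.29 and 0.27 in WT mTBI, and near 0 in WT sham.

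The comparisons that use WT mTBI moved with WT mTBI 3, and with other libraries too. Without WT mTBI 3, CKO mTBI minus WT mTBI had 16 of 36 members higher at an unadjusted p under 0.05, against 10.4% of all genes in either direction, a median of 0.53 and again 0 members called by edgeR. The count also rose without CKO mTBI 2, to 12 higher and 0 lower (7.09% of all genes). The count was 3 higher and 1 lower without WT mTBI 1 (6.1% of all genes) and 4 higher without CKO mTBI 1 (6.85% of all genes). It was 5 higher without CKO mTBI 3 (5.78% of all genes) and 5 without WT sham 2 (4.83% of all genes). Without WT mTBI 2 it was 4 of 36, or 11.1%, the same as the 11.1% of all genes. Without WT mTBI 3, WT mTBI minus WT sham had 1 member higher and 7 lower at that level, 8 of 36 against 15.6% of all genes. The members' share was thus above that of all genes without WT mTBI 3. With all libraries it was 11.1% against 13.2%, near the share of all genes. Without WT sham 2 there was 1 member higher and 0 lower, against 8.26% of all genes. The median of WT mTBI minus WT sham was -0.19 without WT mTBI 3, -0.01 without WT mTBI 1 or WT mTBI 2 and -0.06 without WT sham 1. WT mTBI 3 was the library with high Xist, and the difference in Xist and the difference between libraries cannot be told apart.

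Of the rest of the pathway, a list of 146 further genes, 119 were tested and edgeR called 0 in each comparison. At an unadjusted p under 0.05, 4 were higher and 4 lower in WT mTBI minus WT sham, 6.72% against 13.2% of all genes. In CKO mTBI minus WT mTBI 21 were higher and 1 lower, 18.5% against 6.60%, and in CKO mTBI minus WT sham 15 were higher and 0 lower, 12.6% against 7.20%. The medians were -0.01, 0.21 and 0.17. By DESeq2, 2 of these genes were called in WT mTBI minus WT sham and 0 in the other comparisons. Of all 20032 genes, DESeq2 called 541, 18 and 226 in the same order. By limma voom 2, 0 and 1 of the 119 were called, against 722, 4 and 279 of all genes.

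Interferon RNA itself was at or under the limit of detection at this depth. Of 14 ligand genes, 12 had 0 counts in every library, and Ifne had 2 counts and Ifng 1 count, all in CKO mTBI 3. A count of 0 allows a level of up to 0.0747 to 0.0826 CPM (3 counts), which covers counting error only. Receptors were present: Ifnar1 averaged 46.0 ± 2.1 CPM in CKO mTBI, 45.5 ± 6.27 in WT mTBI and 48.4 ± 1.61 in WT sham (SD, n = 3 each). Ifngr2 averaged 51.4, 55.6 and 53.1 CPM in CKO mTBI, WT mTBI and WT sham, Ifngr1 16.6, 14.2 and 14.4 CPM, Ifnar2 12.4, 12.0 and 10.3 CPM, Il10rb 4.24, 4.79 and 4.03 CPM, and Ifnlr1, the lambda receptor, 0.240, 0.454 and 0.342 CPM. None of the 6 receptors passed the test.

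The IFI200 family, cytosolic and nuclear DNA sensors and their relatives, had all 7 tested genes positive in CKO mTBI minus WT mTBI and 1 of 7 positive in WT mTBI minus WT sham. Mndal had 2.98, 7.16 and 6.29 CPM in CKO mTBI libraries, against 3.54, 3.93 and 3.19 CPM in WT mTBI libraries and 7.56, 6.86 and 8.01 CPM in libraries labelled WT sham. Its log2 change was -1.07 (SE 0.26, edgeR adjusted p = 0.108) in WT mTBI minus WT sham, and that of Ifi203 was -0.78 (SE 0.20, adjusted p = 0.122). Ifi207 had 0.758, 0.665 and 0.771 CPM in CKO mTBI libraries, against 0.180, 0.102 and 0.224 CPM in WT mTBI libraries and 0.286, 0.220 and 0.524 CPM in libraries labelled WT sham. CKO mTBI libraries were above all others, and the log2 change in CKO mTBI minus WT mTBI was 2.09 (SE 0.45, adjusted p = 0.732).

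Other pathway genes of small p had other roles. Likeness of transcripts to other genes was checked for the members alone, so it is not known here for Tgtp1, Mndal, Ifi203 and Ifi207. Tgtp1, an interferon-induced GTPase, had 0.811, 1.53 and 0.925 CPM in CKO mTBI libraries, against 1.31, 0.867 and 1.42 CPM in WT mTBI libraries and 0.415, 0.303 and 0.654 CPM in libraries labelled WT sham. Its log2 change was 1.38 (SE 0.39, edgeR adjusted p = 0.160) in WT mTBI minus WT sham and 1.24 (SE 0.39, adjusted p = 0.388) in CKO mTBI minus WT sham. Slfn8, of the Schlafen family, and Dtx3l, a ubiquitin ligase, had log2 changes of 0.82 (SE 0.23) and 0.42 (SE 0.14) in CKO mTBI minus WT mTBI, both at adjusted p = 0.732. Samhd1, which breaks down deoxynucleotides, and H2-K1, a class I antigen-presenting molecule, had 0.27 (SE 0.08, adjusted p = 0.360) and 0.62 (SE 0.19, adjusted p = 0.388) in CKO mTBI minus WT sham.

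Markers of other cells were read beside these values, since fewer cells of a type and less RNA per cell cannot be told apart in bulk samples. The 10 neuron markers summed to 11500 to 11885 CPM in CKO mTBI, 10414 to 12043 CPM in WT mTBI and 12109 to 12394 CPM in WT sham, so the labelled cell type was present, and so were glia: oligodendrocyte markers reached 9318 CPM and astrocyte markers 5242 CPM. The 11 microglia markers summed to 320 to 442 CPM in CKO mTBI, 306 to 364 CPM in WT mTBI and 334 to 339 CPM in WT sham. A list of 9 myeloid markers, which does not separate infiltrating from resident cells, was also read. It summed to 18.8 to 34.8 CPM in CKO mTBI, 11.6 to 19.0 CPM in WT mTBI and 18.1 to 19.5 CPM in WT sham.

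The myeloid list moved with the members: all 9 genes were positive in CKO mTBI minus WT mTBI, with a median of 0.85, 3 at an unadjusted p under 0.05 and 0 called. Its highest genes were Lyz2 and Mrc1, with means of 9.22 and 5.08 CPM over the 9 libraries. Ccr2, Ly6c2 and Plac8 averaged only 0.509, 0.203 and 0.350 CPM. Within WT mTBI its sum was 11.6, 12.3 and 19.0 CPM in replicates 1, 2 and 3, and the microglia sum was 333, 306 and 364 CPM, both highest in WT mTBI 3. Red blood cell markers were also highest there, at 171 CPM against 36.1 to 90.4 CPM in the other 8 libraries. WT mTBI 3 was the highest of its group for other lists as well: its sums were 9318 CPM for oligodendrocytes, 208 for their precursors, 4848 for astrocytes, 266 for endothelial cells and 297 for mural cells and fibroblasts. In WT mTBI 1 and 2 these sums were 7344 and 5116, 126 and 142, 4149 and 4443, 211 and 230, and 221 and 251 CPM. Within CKO mTBI the myeloid sum was 18.8, 34.8 and 20.2 CPM, and CKO mTBI 2, with the highest sum, had the lowest member median of its group. Lymphocyte markers summed to at most 1.597 CPM in any library, with none at 0 in all. The part of these cell types in the members' values was not tested.

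Choroid plexus markers set libraries apart in another way. They summed to 243, 4997 and 4090 CPM in CKO mTBI 1, 2 and 3, 4414 to 6185 CPM in WT mTBI and 231 CPM in each library labelled WT sham, and 6 of 10 were called in WT mTBI minus WT sham. CKO mTBI 1, with little choroid plexus RNA, had the highest member median of all libraries. Without CKO mTBI 1, the member median was 0.28 in CKO mTBI minus WT mTBI and 0.24 in CKO mTBI minus WT sham, with 0 members called by edgeR in both. With WT mTBI 1, a library high in choroid plexus RNA, left out as well, the medians were 0.20 and 0.24. In the comparison with WT sham, edgeR then called 2 members, Lgals3bp and Ifi27. Calls rose over all genes too, to 338 of 20032 from 14 with all libraries. In CKO mTBI minus WT mTBI, 3 members were then higher and 1 lower at an unadjusted p under 0.05, 4 of 36 against 8.87% of all genes.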

How the data were processed

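The authors deposited 1 table of raw counts per Ensembl gene for 9 libraries. Per the file headers it was made with featureCounts 2.0.6 over exons of Ensembl release 98 (GRCm38), with no option for fragments, strand or multi-mapping reads. With the defaults of that version, each mate adds a count, either strand is accepted and a read with several alignments is dropped. Beside featureCounts, HISAT2, SAMtools, Trim Galore, FastQC, MultiQC and mm10 are named in the submitters' processing notes. Totals were 36452443 to 39590872 counts.

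Genes were filtered with filterByExpr, scaled by TMM and tested in 1 fit of all 9 libraries by edgeR's quasi-likelihood method (version 4.0.16, R 4.3.3; two-sided), with Benjamini-Hochberg adjustment over 20032 genes and a threshold of 0.05. Levels relative to WT sham are log2 CPM with a prior count of 2. DESeq2 1.42.0, voom (limma 3.58.1), other scalings and filters, counts divided by 2, fewer libraries, a replicate block and the WT sham libraries summed were the alternatives. The functions were tested on simulated data. Same-numbered libraries did not deviate together over all genes (correlations of -0.0887 to 0.0733), so the main fit pairs no samples. A pairing that touches few genes would not show in this way.

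Symbols, positions and exon lengths came from GENCODE M21, promoters from RefSeq GRCm38.p6. The members and all lists were chosen with earlier results of these data known. Per-library values are given for the 4 members of smallest p in each comparison, the 6 of highest mean CPM and those whose groups did not overlap and differed by more than 1 in log2. Among other pathway genes, the 3 of smallest p per comparison, the ligands with a count and the receptors are named, some by log2 change or group mean alone. Per-library values of Zbp1, Isg15 and Cxcl10 were added after they were seen.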

Additional observations from a re-analysis of the deposited data

How the results depend on the processing

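No member was called in CKO mTBI minus WT mTBI under any alternative run, DESeq2 and voom included. In WT mTBI minus WT sham the count was 1 with voom, Lgals3bp (adjusted p = 0.0418), and 0 otherwise. In CKO mTBI minus WT sham it was 1 with DESeq2 (Lgals3bp, adjusted p = 0.0015) and 3 with voom. It was 2 without a count filter (Irf7, Lgals3bp) and 1 with the 6 libraries compared alone (Lgals3bp, adjusted p = 0.0469). With WT mTBI 1 and CKO mTBI 1 left out together it was 2. In that order, the calls over all genes were 226, 279, 387 (of 34825 tested), 70 and 338, against 14 in the main fit. Other pathway genes called in WT mTBI minus WT sham numbered 2 with DESeq2, 2 with voom and 4 without a filter. They numbered 1 with 6 libraries and 3 with WT mTBI 1 and CKO mTBI 1 left out. The calls over all genes were 541, 722, 676 (of 34825), 252 and 524, against 102 in the main fit. In CKO mTBI minus WT mTBI 1 pathway gene was called without a filter, against 68 of all genes. In CKO mTBI minus WT sham 1 was called with voom and 1 without a filter. The cause was not tested. Leaving out 1 library gave 0 members called throughout and 0 to 2 pathway genes (2 without CKO mTBI 1). Member medians were then -0.19 to -0.01 (WT mTBI minus WT sham), 0.26 to 0.53 (CKO mTBI minus WT mTBI) and 0.24 to 0.42 (CKO mTBI minus WT sham). Of 390 changes of named members under other settings, 379 kept direction and side of the threshold, 10 became called and 1 turned, Bst2 in CKO mTBI minus WT mTBI (0.10 with the same 2 libraries left out). With 1 library left out, 8 of 324 turned, and the ranges were -0.058 to 0.39 (Irf7) and -0.039 to 0.55 (Oas1a) in WT mTBI minus WT sham, -0.27 to 0.16 (Bst2) and -0.032 to 0.20 (Irf9) in CKO mTBI minus WT mTBI, and -0.0013 to 0.13 (Irgm1) and -0.019 to 0.095 (Stat2) in CKO mTBI minus WT sham. With the replicate block, 0 members were called and the medians were -0.12, 0.37 and 0.32, so the block changed no call. With the WT sham libraries summed to 1 sample, edgeR called 0 members, and 0, 5 and 2 members had an unadjusted p under 0.05, against 2.84%, 3.15% and 1.61% of all genes.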
